A study of Mus musculus with 20 samples.

Results

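The subject is acetylation of lysine 27 of histone H3 (H3K27ac) in the medial ganglionic eminence (MGE) of wild-type and Nkx2-1 mutant mouse embryos. Of the 20 libraries of the series, the 2 precipitated with an H3K27ac antibody were taken, 1 per genotype. Rows of a peak list with the same chromosome, start and end were merged into 1 region, and chromosomes 1 to 19 and X were kept. This gave 62591 wild-type and 67387 mutant regions. Both libraries came from microdissected MGE of C57BL/6 embryos at embryonic day 13.5. The mutant is labelled a conditional knockout of Nkx2-1 (Nkx2-1cKO), and the labels name neither the driver of the deletion, the number of embryos pooled, nor the sex. With 1 library per genotype no difference has a replicate check, no p-value is given, and every difference describes these 2 libraries. The rest of the series holds H3K4me1, H3K4me3 and H3K27me3 of the same genotypes, NKX2-1 and LHX6 from wild-type basal ganglia, and control libraries. All are from embryonic day 13.5, and NKX2-1 and LHX6 were profiled in a strain other than C57BL/6.

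H3K27ac marks promoters and enhancers that are in use, and enhancers that carry it are usually far more specific to a cell type than promoters. The MGE is a ventral swelling of the embryonic forebrain that gives rise to many cortical interneurons and to cholinergic and striatal cells. NKX2-1 is the homeodomain factor that sets its identity apart from the lateral (LGE) and caudal (CGE) ganglionic eminences, the neighbours that make striatal projection neurons and other interneurons.

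6 summit windows of 200 bases are shown because they lie in strong regions found in 1 genotype alone, at genes on which the results below turn. All are on the plus strand of NCBIM37 (mm9) and outside annotated untranslated regions. The Maf window (chr8:118277946-118278145, between genes), the Kcnc2 window (chr10:111814123-111814322, in an intron) and the Lhx8 window (chr3:153990923-153991122, within the gene, after its first TSS) were in wild type alone. The Meis2 window (chr2:116026659-116026858, between genes), the Ebf1 window (chr11:44433597-44433796, close to the TSS) and the Nkx2-9 window (chr12:57713135-57713334, within the gene) were in the mutant alone. Capitals mark the cores searched on both strands for the NK2 homeodomain (CACTTGA or CACTCAA), the LIM homeodomain (TAATTA or TAATGA) and MEIS (TGACAG). The Maf window held 1 LIM core and the Ebf1 window 1 NK2 core, written as its reverse complement, and the other 4 windows held none of these letters.
Maf: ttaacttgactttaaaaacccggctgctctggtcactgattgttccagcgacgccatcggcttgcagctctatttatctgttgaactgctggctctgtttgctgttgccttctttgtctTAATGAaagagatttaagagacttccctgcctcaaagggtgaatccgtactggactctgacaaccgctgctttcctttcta
Kcnc2: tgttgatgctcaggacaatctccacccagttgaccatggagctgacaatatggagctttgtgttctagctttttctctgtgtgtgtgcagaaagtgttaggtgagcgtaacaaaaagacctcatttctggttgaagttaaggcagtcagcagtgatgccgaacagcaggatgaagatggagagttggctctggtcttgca
Lhx8: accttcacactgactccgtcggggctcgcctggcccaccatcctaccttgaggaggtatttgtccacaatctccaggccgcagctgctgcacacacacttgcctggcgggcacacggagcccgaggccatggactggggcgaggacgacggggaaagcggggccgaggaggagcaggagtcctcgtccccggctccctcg
Meis2: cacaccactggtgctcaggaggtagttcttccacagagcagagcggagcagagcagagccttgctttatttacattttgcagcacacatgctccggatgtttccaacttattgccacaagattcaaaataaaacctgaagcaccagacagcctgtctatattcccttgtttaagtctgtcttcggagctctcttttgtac
Ebf1: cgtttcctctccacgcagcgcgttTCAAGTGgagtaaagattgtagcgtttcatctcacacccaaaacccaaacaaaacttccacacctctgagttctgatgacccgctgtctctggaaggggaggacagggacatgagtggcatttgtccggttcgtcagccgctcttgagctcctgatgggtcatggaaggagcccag
Nkx2-9: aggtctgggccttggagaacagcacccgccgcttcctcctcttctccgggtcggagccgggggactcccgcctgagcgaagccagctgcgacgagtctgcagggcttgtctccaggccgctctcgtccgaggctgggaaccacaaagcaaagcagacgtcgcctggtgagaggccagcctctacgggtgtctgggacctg

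After removal of duplicates the libraries were of similar depth, with 57.3 M tags in wild type against 55.9 M in the mutant, and duplicates were 4.15% and 6.96%. Around the targeted gene, Nkx2-1, H3K27ac within 10 kb of its transcription start sites (TSSs) spanned 12.6 kb in wild type against 9.56 kb in the mutant, and both lists held a region at the promoter. Counted from the TSS of Nkx2-9, the next gene upstream, the mutant list had no region from 79.155 to 84.056 kb, a stretch over the 3′ part of Nkx2-1 and the sequence after it. There the wild-type list had regions from 74.841 to 80.543 kb and from 80.63 to 85.575 kb. Fewer cells with acetylation and less acetylation per cell cannot be told apart in such dissected tissue, here or in any later result. The labels give no position for the deleted segment, so acetylation at this locus, in that stretch or outside it, does not check the knockout. Markers of the dissected tissue were acetylated in both genotypes: Dlx1, a homeobox gene of all ganglionic eminences, had 21.0 and 20.4 kb and Gad2, which encodes a GABA-making enzyme, 12.4 and 14.6 kb. Of 12 endothelial, mural and blood genes 2 had at least 1 kb in either genotype, summing over the list to 6.99 kb in wild type against 9.60 kb in the mutant, and Cldn5, Cdh5 and Gata1 were at 0 in both. Of 5 microglial genes found in the annotation 1 reached 1 kb (sums 4.64 and 4.996 kb), with Csf1r and Cx3cr1 at 0 in both.

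The mutant list was the longer of the pair. It covered 63.7 Mb against 57.0 Mb, with a median region length of 635 bases against 604. Its regions were also stronger, with a median authors' −log10 p of 16.2 against 14.4 and a median fold enrichment of 4.92 against 4.59. The part of this in the longer mutant list, and in later excesses in the mutant, was not tested. Covered in both genotypes were 47.1 Mb, making up 82.7% of wild-type bases and 74.0% of mutant bases. A region counted as alone where no region of the other list overlapped it by 1 base or more. In wild type alone were 12137 regions, 19.4% of the list (exact 95% interval 19.1 to 19.7, counting error only), and in the mutant alone 19917 regions, 29.6% (29.2 to 29.9). These regions were short and weak: their median length was 344 bases in wild type and 361 in the mutant, against 731 and 879 for regions in both.

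The order of these shares depended on how much each list covered. With the mutant list cut to its strongest 49988 regions, which cover the same 57.0 Mb as the wild-type list, 28.4% of wild-type and 18.6% of mutant regions were alone, and 21.2% of the bases of either genotype were covered in it alone. That cut kept wild-type regions down to an authors' −log10 p of 5.12 but mutant regions only down to 10.6. With both lists cut to 40 Mb the shares were 20.2% and 13.0%, with lowest −log10 p of 17.3 and 24.3. At 1 limit for both lists, a −log10 p of at least 10, the shares were 16.1% and 28.9%, in the order of the full lists. Counts of genes, promoters, distal regions by gene and windows are therefore given below also at the same covered bases. This setting takes away mutant regions only, so a fall, or an excess in wild type alone, could not be lost by it. Regions alone thinned out with strength, which in each list was ranked by the authors' −log10 p. In the weakest of 10 equal parts of each list 49.5% of distal wild-type regions and 66.0% of distal mutant regions were alone. In part 8, counted from the weakest, these shares were 4.34% and 3.56%. At −log10 p of at least 20 there remained 480 regions in wild type alone and 1092 in the mutant alone, of which 460 and 1004 were distal, and at 50 or more there were 4 and 6.

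**Figure D1:**
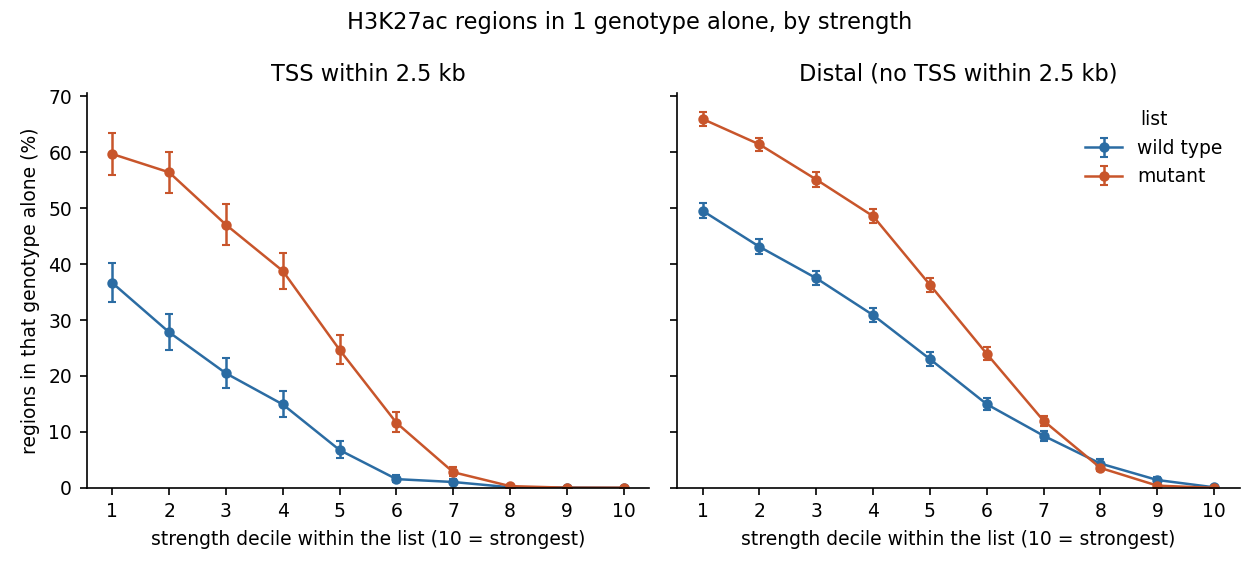
Percentage of H3K27ac regions found in 1 genotype alone (y axis) by decile of −log10 p within each list (x axis, 10 strongest), for regions within 2.5 kb of a TSS (left) and distal regions (right); bars are exact 95% intervals for counting error. The share falls from 49.5% (wild type) and 66.0% (mutant) in the weakest distal decile to 4.34% and 3.56% in decile 8.

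Shared regions also differed in extent. Of 37642 regions that met exactly 1 region of the other list, 62.1% were longer in the mutant, with a median length ratio of mutant to wild type of 1.05. At least 2-fold longer in the mutant were 2591 pairs and at least 2-fold shorter 1210. The median ratio was 1.04 at TSSs and 1.07 between genes. A single region of 1 list often met several of the other: 5102 mutant regions (7.57%) spanned 2 or more wild-type regions, and 2507 wild-type regions (4.01%) spanned 2 or more mutant regions. The longest region of all was a wild-type one of 47.5 kb at chr3:88000684-88048176, over part of Rhbg, an ammonium transporter gene, with Mef2d, a MADS-box factor gene of neurons, on the other side. In the mutant 16 separate regions lay over it, covering 38.2 kb. The longest mutant region, 27.04 kb at chr7:86640507-86667543 between Polg and Rhcg, lay inside a wild-type region of 33.7 kb.

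Most regions found in 1 genotype alone lay away from promoters. Each region was put in 1 place: within 2.5 kb of a protein-coding TSS, else in an exon, else in an intron, else between genes. In the whole lists 30.5% of wild-type and 28.0% of mutant regions lay at a TSS, 30.5% and 30.9% in introns and 35.2% and 37.1% between genes. Of the regions in wild type alone 7.78% lay at a TSS, 44.3% in introns and 44.0% between genes, and of those in the mutant alone 9.99%, 39.996% and 46.3%. Read by place, 4.95% of wild-type TSS regions, 28.2% of intron regions and 24.3% of those between genes were alone. In the mutant these shares were 10.5%, 38.3% and 36.9%. At the same covered bases they were 8.26%, 40.5% and 35.3% in wild type and 5.69%, 26.4% and 25.4% in the mutant, so that distal places exceeded TSSs in both genotypes while the order of the genotypes turned. Strength differed between places: the weakest of 10 parts of the wild-type list held 731 TSS and 5528 distal regions, the strongest 4064 and 2196. In the weakest part 36.7% of TSS and 49.5% of distal wild-type regions were alone, and 59.7% and 66.0% of mutant ones. The part of strength in the shares by place was not tested.

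**Figure D2:**
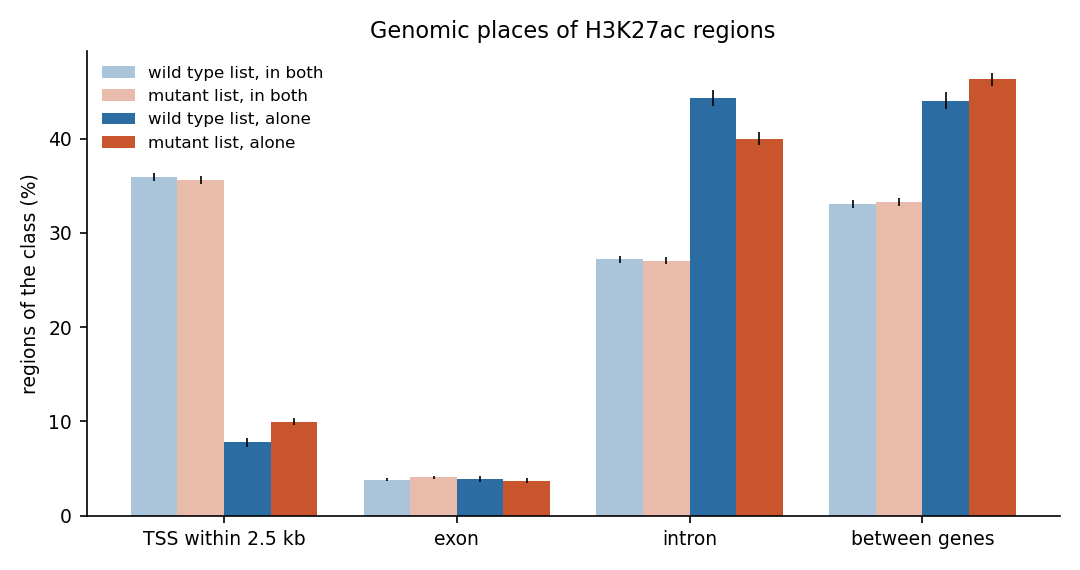
Percentage of each class of H3K27ac regions (y axis) in 4 genomic places (x axis), for regions in both genotypes (light) and in 1 genotype alone (dark) of the wild-type and mutant lists; bars show the share and its exact 95% interval. TSSs hold 7.78% and 9.99% of the regions alone, and introns 44.3% and 39.996%.

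Distance to the nearest TSS separated the classes in the same way. The median was 43.1 kb for regions in wild type alone and 51.9 kb for those in the mutant alone, against 15.2 and 15.4 kb for regions in both. More than 100 kb from any TSS lay 27.3% of the regions in wild type alone and 33.1% of those in the mutant alone. Regions alone were also weaker, and the part of strength in these distances was not tested.

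Genes were compared by the length H3K27ac covered from 10 kb before the first to 10 kb after the last TSS. A gene with at least 1 kb in either genotype was said to fall or rise where this length changed at least 1.5-fold and by at least 1 kb. Of 12602 genes compared 220 fell (1.75%) and 539 rose (4.28%), and the length summed over all genes was 1.08 times as long in the mutant. At the same covered bases 359 fell and 331 rose, and with both lists cut to 40 Mb 505 and 461. Windows of genes with TSSs far apart are longer and leave more room for a change in kb.

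The largest of the 15 largest falls was at Tcf4, an E-protein gene of the basic helix-loop-helix family, whose 59.1 kb in wild type shrank to 32.3 kb. Cux1, a homeobox gene, fell from 32.7 to 11.5 kb, and Tox2, an HMG-box gene, from 36.8 to 21.9 kb. Tiam1, which encodes an activator of the GTPase Rac, fell from 34.0 to 18.1 kb and Elmo1, whose product acts with DOCK proteins on Rac, from 35.8 to 21.8 kb. The actin-binding protein gene Lima1 fell from 24.4 to 13.1 kb and Mical2, an actin-oxidising enzyme, from 10.01 to 4.73 kb. Kirrel3, an immunoglobulin-family adhesion gene, fell from 30.6 to 19.2 kb. Adamtsl3, which encodes a secreted matrix protein, fell from 6.71 to 0.608 kb, although neither genotype had a region at its promoter. Lhx6, Lhx8, Megf11, Wscd2, Slc12a8 and Acpl2 completed the 15. At the same covered bases all 15 stayed called, which was fixed in advance because only mutant regions are taken away there.

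Among the 15 largest rises, the window of 1700112E06Rik, the neighbour of the striatal zinc finger gene Zfp503 on chromosome 14, held 5.16 kb in wild type against 42.8 kb in the mutant. Kcnma1, the gene of the BK potassium channel, had 1.92 and 18.9 kb and a region at its promoter in the mutant alone. Gnao1, a G-protein subunit gene of neurons, rose from 14.1 to 31.8 kb, and Rbfox1, a splicing factor gene, from 6.96 to 23.8 kb. Sema6d, a semaphorin gene of axon guidance, rose from 15.2 to 30.8 kb and Tcf7l2, which encodes a nuclear effector of WNT signalling, from 13.0 to 26.7 kb. Btbd9, Frmd4a and Sorcs1 rose as well and, like these, stayed called at the same covered bases. For Auts2 (from 56.0 to 93.3 kb), Zbtb20 (from 40.4 to 61.5 kb), Meis2 (from 33.2 to 53.9 kb), Nckap5 and Lmf1 that cut ended the call. The largest changes in kb thus include genes whose fold was close to the limit.

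**Figure D3:**
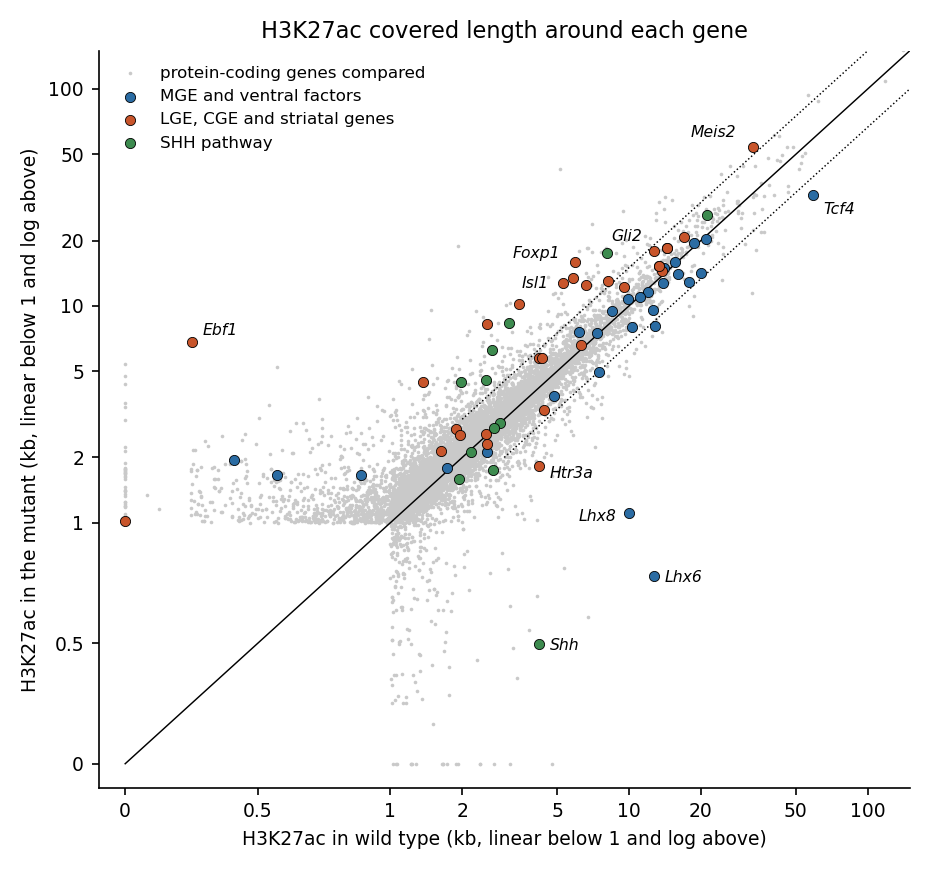
H3K27ac covered length (kb) around each protein-coding gene compared, in wild type (x axis) and in the mutant (y axis), both linear below 1 kb and logarithmic above; colours mark 3 gene lists, the solid line is equality and dotted lines mark a 1.5-fold difference where it exceeds 1 kb. Lhx6 (12.7 and 0.781 kb), Lhx8 (9.99 and 1.11 kb) and Shh (4.203 and 0.498 kb) lie below the lines, and Ebf1 (0.251 and 6.83 kb) and Gli2 (8.08 and 17.5 kb) above.

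Among 32 MGE and ventral telencephalic transcription factor genes, 29 had enough H3K27ac to be compared, and 5 fell (17.2%) and 2 rose (6.90%). Over all genes compared 1.75% fell and 4.28% rose, so that the share of rises was near that of all genes. The median change of the list was −0.43 kb, against 0.11 kb over all genes compared. Members of this and the later lists were chosen with earlier results of these data known, so their shares beside all genes are descriptions and no test. The median wild-type length was 12.06 kb in this list against 2.06 kb over all genes, which leaves more room for a change of 1 kb. The LIM homeobox genes Lhx6 and Lhx8, which act in MGE-derived interneurons and cholinergic neurons, kept 0.781 of 12.7 kb and 1.11 of 9.99 kb. Satb1, a chromatin organiser of maturing interneurons, fell from 7.45 to 4.94 kb, and the E-protein gene Tcf12 from 12.9 to 8.06 kb, beside Tcf4. The 2 that rose were small in extent: Nkx6-2, a homeobox gene of MGE progenitors, from 0.410 to 1.96 kb and Gsx1, a homeobox gene of ventral progenitors, from 0.574 to 1.66 kb. Dlx2 (12.1 and 11.6 kb), Sp9 (16.1 and 14.1 kb) and Zic1 (10.3 and 8.03 kb) did not pass the limits. Sox6, an SRY-box gene of MGE-derived interneurons, had 17.9 and 12.9 kb and was not called. It passed as a fall at the same covered bases and with both lists cut to 40 Mb. Both settings hold the mutant list to a higher −log10 p than the wild-type list, so falls are gained more easily there. Over all genes, falls numbered 220 in the full lists and 359 and 505 in these settings.

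Of 34 cortical interneuron genes 29 were compared, and 7 fell (24.1%) and 2 rose (6.90%), with a median change of −0.39 kb. Over all genes compared 1.75% fell and 4.28% rose, so that here too the share of rises was near that of all genes. Of the 7 falls, Lhx6, Satb1 and Tcf4 are shared with the list above. Beyond these, Nxph1, which encodes a secreted neuronal glycoprotein, fell from 7.05 to 3.38 kb and Elfn1, a synaptic organiser gene, from 4.89 to 2.40 kb. Kcnmb2, a BK channel subunit gene, fell from 7.28 to 4.79 kb and the neuropeptide gene Npy from 1.36 to 0.267 kb. Npas1, a transcription factor gene, rose from 2.16 to 4.86 kb and Cntnap2, a neuronal adhesion gene, from 8.97 to 14.1 kb, but both calls were lost at the same covered bases. The GABA synthesis gene Gad1 had 13.3 and 11.8 kb and was not called. Of 11 cholinergic neuron genes 6 were compared, with Lhx8 falling and Isl1, a LIM homeobox gene shared with the striatal list, rising. Each of these calls is 16.7% of the cholinergic genes compared. Chat, the acetylcholine-making enzyme, had none within its window in either genotype.

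Genes of LGE and CGE identity and of striatal neurons moved the other way. Of 35, 27 were compared, 11 rose and 1 fell, 24 were longer in the mutant, and the median change was 2.66 kb. In percent, 40.7 rose, 3.70 fell and 88.9 were longer, where over all genes compared 4.28 rose, 1.75 fell and 67.7 were longer. These members too were chosen with earlier results known, and their median wild-type length was 4.38 kb against 2.06 kb over all genes. Ebf1, a factor gene of differentiating striatal neurons, had 0.251 kb in wild type against 6.83 kb in the mutant. The LIM homeobox gene Isl1 rose from 5.28 to 12.7 kb. Zfp503 reached 13.4 kb against 5.82 kb, the Groucho co-repressor gene Tle4 10.2 kb against 3.47 kb, and the retinoic acid receptor gene Rarb 8.23 kb against 2.53 kb. The forkhead genes Foxp1 and Foxp2 rose from 5.95 to 15.9 and from 6.63 to 12.4 kb. Zfhx3, a zinc finger homeobox gene, rose from 8.14 to 13.0 kb and Pax6, a homeobox gene of dorsal and lateral progenitors, from 1.37 to 4.46 kb. Tac1, the substance P gene of striatal neurons, had none in wild type against 1.02 kb in the mutant. The fall was at Htr3a, a serotonin receptor gene of CGE-derived interneurons, from 4.201 to 1.83 kb. At the same covered bases 9 rose and 2 fell, and the rises of Meis2 and Tac1 were lost. Prox1, a homeobox gene of CGE interneurons (4.38 and 3.30 kb), joined the falls there, in a setting that takes away mutant regions only. The share of LGE or CGE cells in the dissected tissue was not tested, although the values of the pallial, endothelial and microglial lists are given here beside them.

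Genes of the SHH pathway, which patterns the ventral forebrain, split by role. The ligand gene Shh fell from 4.203 to 0.498 kb, and the call could not be made with both lists cut to 40 Mb. The co-receptor genes Boc, Cdon and Gas1 rose, from 3.15 to 8.33, from 2.52 to 4.53 and from 1.98 to 4.46 kb. Of the transcription factors, Gli2 rose to 17.5 kb (wild type 8.08 kb) and Gli3 to 6.28 kb (wild type 2.66 kb), while Gli1 had 2.17 and 2.13 kb. The receptor gene Ptch1, a target of the pathway, had 21.2 and 26.3 kb, and Smo and Sufu were not called. In all, 12 genes were compared, 5 rose (41.7%) and 1 fell (8.33%), with a median change of 1.01 kb. At the same covered bases these counts did not change. Of all genes compared 4.28% rose and 1.75% fell in the full lists.

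Of 12 WNT and BMP genes compared 3 rose (25%, against 4.28% of all genes). These were the nuclear effectors Tcf7l2 and Lef1 (from 1.05 to 3.26 kb) and the receptor gene Bmpr1b, the last not at the same covered bases. Of 16 Notch genes the receptor gene Notch2 rose, from 1.44 to 3.90 kb, and Dll1, Hes5 and Notch1 were not called. That is 6.25%, near the 4.28% of all genes that rose, as are 1 of 23 axon guidance genes (4.35%) and 1 of 20 progenitor genes (5%). Among 23 axon guidance genes the ephrin gene Efnb2 rose from 9.30 to 14.9 kb, a call lost at the same covered bases, and the plexin gene Plxna4 fell from 3.38 to 1.91 kb. Of 20 progenitor and cell cycle genes Pax6 alone was called, and of 15 housekeeping genes none was, with a median change of 0.32 kb and 15 of 15 longer in the mutant (67.7% of all genes). Of 16 pallial neuron genes 7 were compared, and Tbr1 (from 0.563 to 1.58 kb) and Fezf2 (from 1.17 to 2.90 kb, not at the same covered bases) rose. That is 28.6%, against 4.28% of all genes, and all 7 were longer in the mutant, against 67.7% of all genes. The list summed to 22.8 and 34.8 kb, 1.53 times as long in the mutant, and the ratio of the LGE and CGE list was also 1.53. Emx1, Neurog2 and Eomes were at 0 in both genotypes. Of 8 oligodendrocyte genes 3 were compared and Mbp fell, from 6.95 to 3.41 kb, a direction that turned with both lists cut to 40 Mb (0.372 kb longer in the mutant). Of 12 lung and thyroid targets of NKX2-1, 4 were compared and Tshr, the thyrotropin receptor gene, fell from 1.71 to 0.546 kb. These single falls are 33.3% of the oligodendrocyte genes and 25% of the lung and thyroid genes compared, against 1.75% of all genes.

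The cut of both lists to 40 Mb ended further calls, beside those of Shh and Mbp. Lost among the falls were Kcnmb2, Npy, Plxna4 and Tshr. Lost among the rises were Gsx1, Nkx6-2, Foxp1, Foxp2, Meis2, Tac1, Cdon, Lef1, Efnb2, Fezf2, Tbr1, Zbtb20, Nckap5 and Lmf1. The calls of Lhx6, Lhx8, Satb1, Tcf4, Tcf12, Ebf1, Isl1, Boc, Gli2 and Gli3 held at this cut. It holds the mutant list to a higher −log10 p than the wild-type list (24.3 against 17.3), which favours falls. In other settings Satb1 lost its call at −log10 p of at least 10 and at 2-fold. Tcf12 lost its call with windows of 25 kb and at 2-fold, and Tcf4 at 2-fold. At the same covered bases the rises of Ebf1, Isl1, Boc, Gli2 and Gli3 held as well. The falls of Lhx6, Lhx8, Satb1, Tcf4 and Tcf12 could not be lost in that setting.

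Promoters were compared by presence. Of 12992 genes with a region within 1 kb of a TSS in either genotype, 101 had it in wild type alone (0.777%) and 526 in the mutant alone (4.05%). At the same covered bases the counts were 262 and 280, and with both lists cut to 40 Mb 380 and 298. The listed genes with the promoter in wild type alone were the homeobox genes Gbx1 (0.728 kb within 10 kb in wild type, none in the mutant) and Gbx2 (0.884 and 0.373 kb). In the mutant alone it was acetylated at Tac1, Drd1a and Otof of the LGE and CGE list, at the pallial genes Fezf2, Neurod1 and Slc17a6, and at Npas1, Jag2, Olig1 and Kdr. Apart from Fezf2, Npas1 and Tac1 these windows held under 1 kb in the mutant, from 0.324 kb at Neurod1 to 0.780 kb at Jag2. Those of Tac1, Npas1, Olig1 and Neurod1 were in neither list at the same covered bases, and at 40 Mb none of these listed promoters was in either. The promoters of Lhx6, Lhx8 and Shh were in both full lists, while at 40 Mb those of Lhx6 and Lhx8 were in wild type alone.

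Distal regions, those with no TSS within 2.5 kb, made up most of the regions in 1 genotype alone. There were 11193 in wild type alone and 17928 in the mutant alone, 1.60 in the mutant for each in wild type. This order turned at the same covered bases, with 16228 and 8327, or 0.513 in the mutant for each in wild type. Given to the gene of the nearest TSS, the SHH pathway list had 7 in wild type alone and 72 in the mutant alone, the LGE and CGE list 90 and 373, and the WNT and BMP list 22 and 65. The axon guidance list, at 143 and 265, was near the ratio of all genes. The MGE list had 153 and 94 and the interneuron list 238 and 145. With equal covered bases the counts were 11 and 35 for the SHH list and 121 and 201 for the LGE and CGE list, so that both kept their order. The MGE list, at 200 and 38, and the interneuron list, at 308 and 72, could not turn, since only mutant regions are taken away. The WNT and BMP list (35 and 30) and the axon guidance list (209 and 121) turned with all genes. Gli2 had 0 in wild type alone and 19 in the mutant alone, Boc 0 and 16 and Gli3 1 and 15. Ebf1 had 0 and 46, Tle4 2 and 35 and Isl1 0 and 20. Maf, a factor gene of interneurons whose own window was not called (2.55 and 2.12 kb), had 18 in wild type alone and 4 in the mutant alone. Sox6 had 21 and 3, Elfn1 14 and 0, and Sp8, a zinc finger gene of the LGE and CGE list, 11 and 1. Each of these 10 genes kept its order at the same covered bases, from 0 and 31 at Ebf1 and 1 and 7 at Gli2 to 24 and 1 at Sox6. For Maf, Sox6, Elfn1 and Sp8, with more in wild type alone, that setting could not have turned the order.

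**Figure D4:**
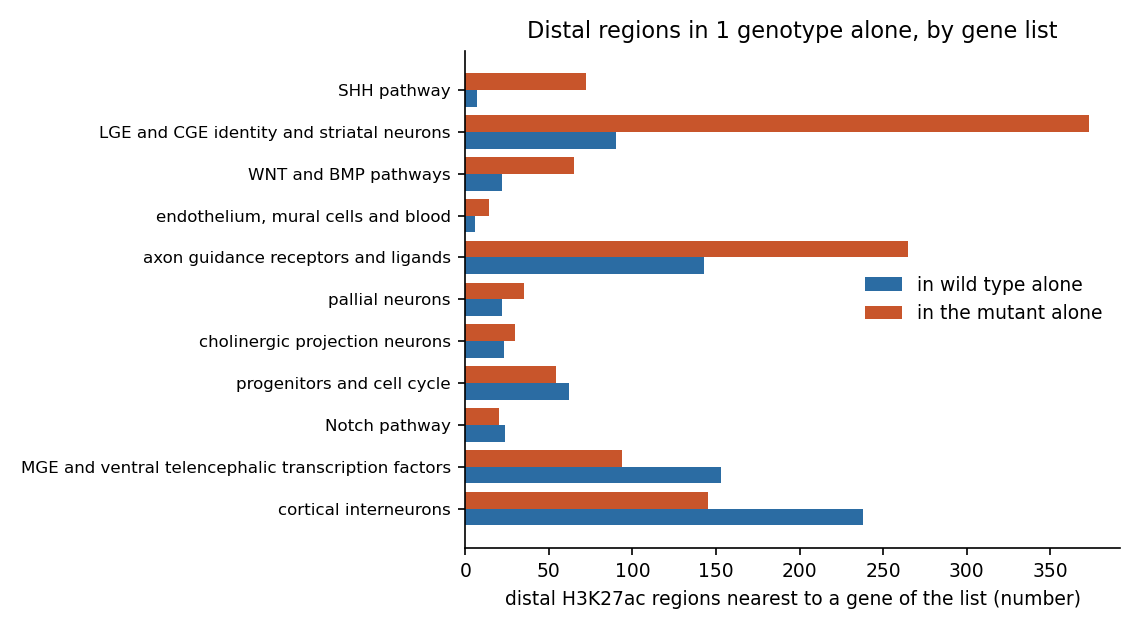
Number of distal H3K27ac regions (x axis) in wild type alone and in the mutant alone whose nearest TSS belongs to a gene of each list (y axis, lists with at least 20 such regions, ordered by the ratio). The MGE list (153 and 94) and the interneuron list (238 and 145) have more in wild type alone, and the LGE and CGE list (90 and 373) and the SHH list (7 and 72) more in the mutant alone.

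The 12 genes with most of these regions nearest to them held 498 in wild type alone, 4.45% of all such regions, and 654 in the mutant alone, 3.65%. In wild type alone 61 lay nearest to Lrguk, over 0.378 Mb of chromosome 6 whose middle is inside Exoc4, against 6 in the mutant alone. Near Gatsl2 there were 60 and 9, over 0.731 Mb between Auts2 and Gatsl2. Near Zfp608 there were 51 and 21, near Cdca7, in a stretch towards the zinc finger gene Sp3, 40 and 2, and near Gm6816, in a stretch towards Sox6, 42 and 2. Near Cps1, towards the neuregulin receptor gene Erbb4, they numbered 33 and 0. Grik3, a kainate receptor gene, had 37 and 6. Tcf4, Cdkal1, Fam92a, Zfp536 and Dscaml1 completed the 12, with 43, 38, 36, 29 and 28 in wild type alone and 4, 32, 5, 7 and 9 in the mutant alone. At the same covered bases the counts ran from 34 and 0 at Cps1 to 73 and 2 at Lrguk, and Cdkal1 had 54 and 11. The order of these 12 could not turn there, since only mutant regions are taken away.

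In the mutant alone 98 lay nearest to Vrk1, against 16 in wild type alone, over 0.762 Mb of chromosome 12. The middle of this stretch lies between Vrk1 and 3110018I06Rik. Bcl11b, a zinc finger gene of striatal neurons farther along the same chromosome, had 11 in the mutant alone and 24 in wild type alone. Near Zfhx3 there were 47 and 2, and near its neighbour Psmd7 on chromosome 8, between Psmd7 and Zfhx3, another 47 and 1. Zbtb20 had 58 and 6, Ebf1 46 and 0 and Kcnma1 45 and 0. Cadm1, an adhesion gene, had 63 and 10, Dpyd 52 and 1 and Cryba4 49 and 7. Auts2 had 52 and 27 and Zmiz1 46 and 26, both with many in each genotype. With equal covered bases the order turned at Auts2 (25 and 36) and Zmiz1 (10 and 49), was near equal at Cadm1 (23 and 22) and Cryba4 (15 and 12), and Vrk1 had 47 and 28. Ebf1 (31 and 0), Kcnma1 (28 and 0), Dpyd (37 and 2) and Zfhx3 (21 and 3) kept their order.

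Windows of 100 kb were compared without reference to genes. Of 15900 windows with H3K27ac in either genotype, 147 lost 5 kb or more and 326 gained as much, and at the same covered bases 245 and 159. The largest loss was at chr2:35900001-36000000, which holds Lhx6, with 32.9 kb in wild type against 4.73 kb in the mutant. The adjacent window, chr2:35800001-35900000 at Ttll11, had 21.3 and 5.76 kb. A window without a TSS at chr4:124900001-125000000 had 40.6 and 17.9 kb. The largest gain was at the channel gene Ano1 (chr7:151800001-151900000), with 12.1 and 33.0 kb, followed by Boc (chr16:44500001-44600000), with 9.68 and 29.1 kb. The mutant still had 28.8 and 28.3 kb in these at the same covered bases.

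Single strong regions in 1 genotype alone were examined by their −log10 p, of which the authors' columns also give the fold. The strongest distal one in wild type alone lay at chr10:70268666-70270772 between Phyhipl and 4930533K18Rik (−log10 p 68.3, fold 11.5). It was stronger than 94.9% of its list and overlapped an NKX2-1 peak. Another, at chr7:129935762-129937398, lay 120.5 kb from Cacng3, a gene of an AMPA receptor subunit partner, and overlapped an LHX6 peak. A region in an exon of Thsd7a at chr6:12286933-12287632 overlapped peaks of both factors. At Adamtsl3 a pair of neighbouring intron regions, at chr7:89542025-89544118 and chr7:89544568-89545401, overlapped neither. The region that holds the Maf window above, at chr8:118277015-118278664, lay 45.3 kb from Maf and overlapped an NKX2-1 peak. The one that holds the Kcnc2 window, in an intron of this potassium channel gene of fast-spiking interneurons, overlapped an LHX6 peak. The other one of the 8 was nearest to Bend5, inside Agbl4.

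In the mutant alone the strongest distal region lay in an exon of Col4a4, a collagen gene, at chr1:82461189-82462630 (−log10 p 61.6, fold 10.9). The region of the Meis2 window, at chr2:116026072-116028331, lay 134 kb from that gene (−log10 p 59.4), and a further one at chr2:116593249-116595167 lay on the far side of the same interval, nearest to Tmco5. Others lay 602 kb from Ebf1 at chr11:45033887-45035611 and 366 kb from Dach1, a nuclear factor gene, at chr14:98934426-98934924. The remaining 3 were nearest to 1700067P10Rik, Vstm2a and Ywhaq. Of these 8 regions 1, nearest to Tmco5, overlapped an NKX2-1 peak, and none overlapped an LHX6 peak.

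The strongest region in the mutant alone, at a TSS or distal, lay over Nkx2-9, a homeobox gene of the NK2 family, and was singled out after its values were seen. It ran over 5422 bases at chr12:57710673-57716094 (−log10 p 62.7, fold 11.01), covered the whole gene and lay 72.8 kb from the nearest TSS of Nkx2-1. Within 10 kb of the Nkx2-9 TSS the wild-type list had no region. The stretch carried H3K4me1, H3K4me3 and H3K27me3 in both genotypes. Other strong regions in the mutant alone at TSSs lay at Kcnma1, Frmd6, Ebf1, 1700112E06Rik, Ipcef1 and Tcf7l2. In wild type alone the strongest TSS regions lay 1.997 kb from a TSS of Kirrel3 and 0.067 kb from a TSS of Lhx8. The Lhx8 region holds the Lhx8 window above and lay within the gene, from 2.084 to 3.501 kb after its first TSS. The wild-type region over that first TSS was in both genotypes.

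Loci were mapped for 150 kb on either side of the first TSS of 6 genes chosen after their values were seen. Around Lhx6 there were 42 wild-type regions, 29 of them alone, covering 71.3 kb, and 14 mutant regions, none alone, covering 14.8 kb. Around Lhx8 the counts were 26 (17 alone) and 12 (1 alone), and around Maf 14 (9 alone) and 5 (none alone). Around Meis2 the wild-type list had 27 regions, none alone, and the mutant list 41, of which 26 were alone. Around Ebf1 there were 3, none alone, and 14, of which 11 were alone. Around Nkx2-9 there were 21 (2 alone) and 22 (7 alone), and all 21 of wild type lay 71.971 kb or more from the Nkx2-9 TSS, on the Nkx2-1 side. At the same covered bases the regions alone in wild type and in the mutant numbered 30 and 0 at Lhx6, 18 and 1 at Lhx8, 9 and 0 at Maf, 1 and 12 at Meis2, 0 and 9 at Ebf1 and 2 and 3 at Nkx2-9.

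**Figure D5:**
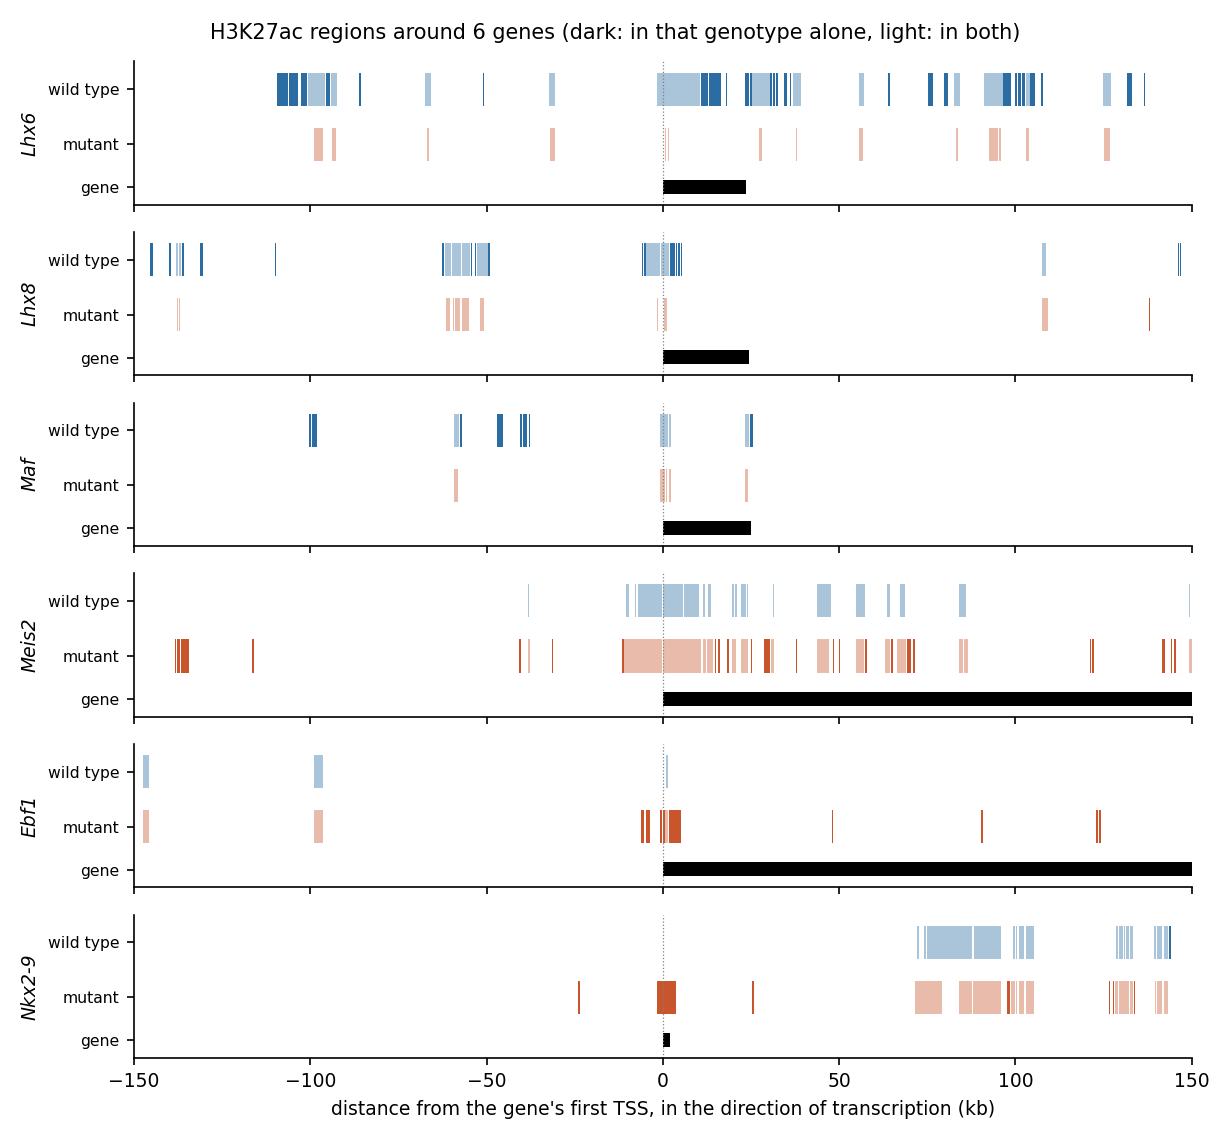
H3K27ac regions in wild type (upper track) and in the mutant (lower track) by distance from the first TSS in kb (x axis) around 6 genes, dark where found in that genotype alone and light where found in both; the black bar is the gene. Lhx6 has 29 wild-type regions alone and no mutant region alone, and Meis2 has 26 mutant regions alone and no wild-type region alone.

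Other marks showed what state these distal places were in. Of the distal regions in wild type alone 60.5% overlapped H3K4me1, a mark of enhancers, in wild type and 44.8% in the mutant. Of those in the mutant alone 45.6% overlapped it in wild type and 66.4% in the mutant. Regions in both genotypes overlapped H3K4me1 more often, 87.4% in wild type and 89.7% in the mutant when counted over the wild-type list. H3K4me1 was thus present in both genotypes at 40.5% of the regions in wild type alone and 43.3% of those in the mutant alone, in the acetylated genotype only at 19.99% and 23.1%, and in neither at 35.2% and 31.4%. H3K27me3, the Polycomb mark, was rare: it overlapped 2.56% of the regions in wild type alone in wild type and 4.77% in the mutant, and 3.68% and 4.05% of those in the mutant alone. The mutant H3K4me3 list overlapped 21.7% of the distal regions in the mutant alone and the wild-type one 8.78%. For regions in wild type alone the shares were 8.95% and 8.61%. The other marks' lists also differ in length between genotypes, and their part in these shares was not tested.

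Wild-type binding of the factors was scarce at these places. An NKX2-1 peak overlapped 3.94% of the distal regions in wild type alone, 7.004% of those in both and 0.569% of those in the mutant alone. For LHX6 the shares were 1.70%, 1.62% and 0.0892%. Read the other way, 15.8% of the 2264 distal wild-type regions with an NKX2-1 peak but no LHX6 peak were in wild type alone, 18.8% of the 441 with both factors and 39.1% of the 274 with an LHX6 peak but no NKX2-1 peak (exact 95% interval 33.2 to 45.1). Without either factor it was 26.3% of 40538. Regions with a factor peak were stronger, with median −log10 p of 31.6, 36.2 and 22.9 in that order against 11.6 without a factor. The part of strength in these shares was not tested. Both factors were profiled in another strain and in whole basal ganglia.

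Sequence at the distal summits differed little between the classes. Shares are of 200-base windows with the motif on either strand, with the share of windows 1 kb to either side in brackets. The NK2 core lay in 5.54% of windows in wild type alone (5.41%), 5.05% in the mutant alone (5.33%) and 5.03% of all distal wild-type windows. The LIM core lay in 10.4% (15.03%), 12.4% (16.6%) and 10.6%, below the sides in each class. The MEIS core lay in 17.0% (14.3%), 18.6% (14.2%) and 17.3%. The E-box of neural bHLH factors (CAGATG or CAGCTG), whose first letters CAG also end the MEIS core, lay in 32.1% of windows in wild type alone (25.2%) and 28.4% in the mutant alone (22.6%), and the SOX core (ACAATG or ACAAAG) in 28.6% (26.0%) and 31.8% (27.1%). The median GC content of the windows was 49.5% in wild type alone, 48% in the mutant alone and 50.5% in both. Among the 460 and 1004 distal regions alone with −log10 p of at least 20, the SOX core lay in 26.5% (exact 95% interval 22.5 to 30.8) and 33.9% (30.9 to 36.9), against 30.6% and 31.6% of equally strong regions in both. A match is a description of the letters and not of binding.

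Base composition moved with the genotypes also at a larger scale. Over the 20 chromosomes the mutant covered from 1.05 to 1.21 times as many bases as wild type, and this ratio was higher where GC content was lower (Pearson r −0.69, Spearman rho −0.65, given as a description over chromosomes of 1 pair of libraries). With genes split into 3 equal groups by the GC content of their windows, the summed H3K27ac of all genes compared was 1.14, 1.07 and 1.03 times as long in the mutant from low to high GC. In the same groups the ratio was 1.85, 1.499 and 1.33 for the LGE and CGE list, 0.646, 0.870 and 0.939 for the MGE list, 1.74, 1.40 and 1.27 for the SHH list and 0.752, 0.943 and 0.797 for the interneuron list. These 4 lists kept their side of 1 in each group, and within each the LGE and CGE list lay above and the MGE list below all genes. The groups are small, from low to high GC 6, 12 and 9 genes of the LGE and CGE list and 6, 11 and 12 of the MGE list. For the SHH list they hold 3, 5 and 4 genes and for the interneuron list 14, 6 and 9. The part of GC content in these ratios was not tested.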

How the data were processed

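Chromatin immunoprecipitation with sequencing was done on 1 library per genotype. Per the submitters' processing notes CASAVA 1.8.2, bcl2fastq 1.8.4, BWA 0.6.2, MACS2 2.1.0 and mm9 were used. Per the file headers the authors called regions against input with MACS 2.1.0.20140616 at a p limit of 1e-05, without a local background and with tags extended to 250 bases. Each deposited row gives a summit: its pileup signal in extended tags, its −log10 p, its fold enrichment (ratio to the genome-wide background) and the length of its region. The deposited −log10 q column is filled although, per the file headers, q-values were not calculated, and it was not used. Replicates, pooled embryos and the driver of the deletion are not given in the sources used here.

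Rows of 1 region were merged, keeping the strongest summit. Genes were 22342 protein-coding genes of GENCODE vM1 on NCBIM37, with 45993 TSSs. Of 281 entries in 15 gene lists 278 matched. Members and lists were chosen with earlier results of these data known. Named are up to 10 called genes of each direction per list, the 15 largest falls and rises, 12 genes per genotype with most distal regions alone, the 8 strongest distal regions alone, list genes with a promoter in 1 genotype alone, and Nkx2-1. Others named were chosen after their values were seen. Some genes that this rule names are not reported here. Intervals are exact (Clopper-Pearson, 95%) and cover counting error only. Sequences and GC come from NCBIM37. The tools were scipy 1.17.1, bedtools 2.31.1, pandas 2.3.3 and numpy 2.4.6 under Python 3.11.15, and 8 checks on simulated data and against bedtools gave 0 mismatches. Alternatives were the same covered bases, a −log10 p of at least 10, other overlaps, distances, windows and folds, and both lists cut to 40 Mb. That cut, and the same covered bases for distal regions by gene, windows and loci, were added after seeing the data.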

Additional observations from a re-analysis of the deposited data

How the results depend on the processing

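No paired analysis was possible because each genotype has 1 library. For the same reason no library could be left out. The share of regions in 1 genotype alone depended on every setting tried. It was 28.4% in wild type and 18.6% in the mutant at the same covered bases, whether cut by −log10 p or by fold, since both columns rank the regions alike. It was 16.1% and 28.9% with −log10 p of at least 10 in both lists, 10.5% and 18.9% with that limit in the list asked about only, and 20.2% and 13.0029% with both lists cut to 40 Mb, a setting chosen after seeing the data. It was 23.2% and 35.2% where 50% of a region had to be covered, and 12.7% and 20.8% where regions within 1 kb counted as shared. The order of the genotypes turned at the same covered bases and at 40 Mb, settings that remove more mutant than wild-type regions and leave equal bases. Both hold the mutant list to a higher −log10 p than the wild-type list, 10.6 against 5.12 and 24.3 against 17.3.

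The share of regions at TSSs was 34.1% in the mutant at the same covered bases, 37.4% in wild type and 33.9% in the mutant with −log10 p of at least 10, 49.9% and 53.3% at 40 Mb, and 26.7% and 24.7% with 1 kb as the distance. Genes that fell numbered 359 at the same covered bases, 331 with windows of 25 kb, 95 at 2-fold and 505 at 40 Mb. Genes that rose numbered 331, 864, 304 and 461 in these settings, so that falls exceeded rises at the same covered bases and at 40 Mb. Promoters in wild type alone numbered 262 at the same covered bases and 380 at 40 Mb, and in the mutant alone 280 and 298. Of 66 named genes with a call, 55 kept it at the same covered bases, where only a rise could be lost. It was kept by 61 at −log10 p of at least 10, 63 with 25 kb windows, 41 at 2-fold and 46 at 40 Mb. At 40 Mb Mbp turned, with 0.372 kb more in the mutant. The cause was not tested.

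Of distal regions in wild type alone, 54.2% had mutant H3K4me1 at the same covered bases and 41.7% with −log10 p of at least 10. With that limit 3.60% had mutant H3K27me3, 6.48% NKX2-1 and 3.04% LHX6. Of those in the mutant alone, 48.9% had wild-type H3K4me1 and 0.745% NKX2-1 at the same covered bases. With the limit of 10 these were 43.2% and 0.764%, and 3.24% had wild-type H3K27me3. In windows of 400 bases, which are longer and hold more matches, the NK2 core lay in 11.7% of windows in wild type alone and 10.1% in the mutant alone. The LIM core lay in 23.7% and 26.8%, the MEIS core in 30.7% and 33.3%, and the EBF palindrome in 1.11% and 1.34%. Regions just above the authors' p limit in one genotype and just below it in the other count as alone, and how many do cannot be counted from lists that end at that limit.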

Other observations

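The X chromosome had fewer regions in wild type alone than any autosome, 9.16% against 15.8% to 22.7%, while 24.9% of its mutant regions were alone. The labels give no sex, and its part in this share was not tested.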
